A study of Rattus norvegicus with 4 samples.

Results

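The angiotensin system was represented by 10 genes, Ace, Agt, Agtrap, Atp6ap2, Mas1, Thop1, Nln, Lnpep, Prcp and Ctsd. They were found by their symbols: every probe set to which the platform annotation gives exactly 1 gene symbol, one of these, was taken, which gave 15 of 31042 probe sets. A probe set is the group of short array probes that together report 1 transcript. Of the 15, 10 probe sets of 7 genes reached a signal of 100 on 2 arrays or more and were tested. The other 5, of Nln, Lnpep and Prcp, were under 100 on all arrays and are given as not measurable.

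Total hippocampal RNA of male Wistar rats, dissected at the age of 16 months, was hybridized to the arrays. The stressed group had undergone 4 weeks of chronic unpredictable mild stress, a battery of changing mild stressors begun at 15 months, and the nonstressed controls of the same age were kept in standard housing. Each group had 2 arrays, labelled as biological replicates, and each array held RNA pooled from 3 rats, so the spread between arrays is a spread between pools and not between single rats. The RNA came from the whole dissected hippocampus, with all its neurons, glia and vessels and whatever adjoining tissue came with it.

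Angiotensinogen, the product of Agt, is cut to angiotensin I, from which angiotensin-converting enzyme (Ace) removes the last pair of residues to give angiotensin II, the ligand of the AT1 and AT2 receptors. Other peptidases shorten these peptides further, and the heptapeptide they release acts through the receptor Mas. In brain, angiotensinogen is made mainly by astrocytes, whereas Ace is known from vascular endothelium, choroid plexus epithelium and certain neurons, those of the striatum above all.

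Median signals of the 4 arrays were 79.6 to 82.3, and 46.4% to 46.8% of probe sets reached a signal of 100. Of 14791 tested probe sets, 12% were higher and 11.8% lower in stressed rats at adjusted p under 0.05 from limma, and with 2 arrays a group the arrays of the groups did not overlap for 64.4% in either direction, so neither a call nor a separation of the groups is rare here. For 2 arrays against 2 the smallest p of an exact two-sided permutation test is 0.333, and the number of arrays limits the precision of every value. Among the 10 tested probe sets of the angiotensin genes, 4 were higher, those of Ctsd and Agtrap only just at the threshold, 1 was lower and 5 did not pass. Their arrays did not overlap for 9 of the 10. At the thresholds that the methods name, at least 2-fold and unadjusted p under 0.05, 1 of the 10 was higher, Ace 1370028_at, and none lower, against 0.149% and 1.3% of all tested probe sets. After adjustment the unpaired t-test of the methods called none of the 10. For 2 of the 10, 1 of Ace and 1 of Agtrap, fewer than 2 control arrays reached 100, so that these passed the filter through the stressed arrays, and no count that includes them stands as support for a rise.

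Ace was higher in stressed rats at both of its probe sets, by a small amount at one and by more at the other. The one with the larger rise, 1370028_at, passed the filter through its stressed arrays, so it is no second support for a rise. The probe set with the higher signal, 1387791_at, read 260.9 and 253.0 in stressed rats and 182.6 and 187.6 in nonstressed controls. The groups did not overlap, and the arrays of a group lay close together. The means, with the SD of 2 arrays, were 257.0 ± 5.59 and 185.1 ± 3.54, which is a log2 fold change of 0.47 (limma, standard error 0.10, adjusted p = 0.0135), or 1.39-fold with a 95% confidence interval of 1.18 to 1.63. A total of 516 of the 14791 tested probe sets had a larger rise. In whole tissue, more cells of a type and more RNA per cell cannot be told apart.

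The other Ace probe set, 1370028_at, read 151.3 and 131.7 in stressed rats against 48.8 and 63.5 in nonstressed controls. Both control signals were under 100, and neither group overlapped the other. The log2 fold change was 1.34 (limma, standard error 0.19, adjusted p = 0.00262), or 2.54-fold with a 95% confidence interval of 1.87 to 3.43. A total of 12 tested probe sets rose by more, but this one passed the filter through its stressed arrays, so its rank is no support for a rise. This size depended on how low signals were treated, since with 50 added to each signal before taking logarithms it was 0.85, with an adjusted p of 0.0021. The log2 fold changes of the Ace probe sets were 0.87 apart, and 7.26% of the 1487 genes with 2 tested probe sets had a wider gap. Which Ace transcripts each probe set reports was not analysed here.

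The call of 1387791_at was lost when an array was left out in 3 of the 4 cases. The adjusted p from limma was 0.0562 without stressed replicate 1, 0.0685 and 0.0624 without control replicates 1 and 2, and 0.0407 without stressed replicate 2. The size of the difference stayed between 0.45 and 0.50, while the removal leaves a single array in one group and less power. At 1370028_at, which passed the filter through the stressed arrays, the log2 fold change ran from 1.15 to 1.53 over the 4 removals.

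**Figure D1:**
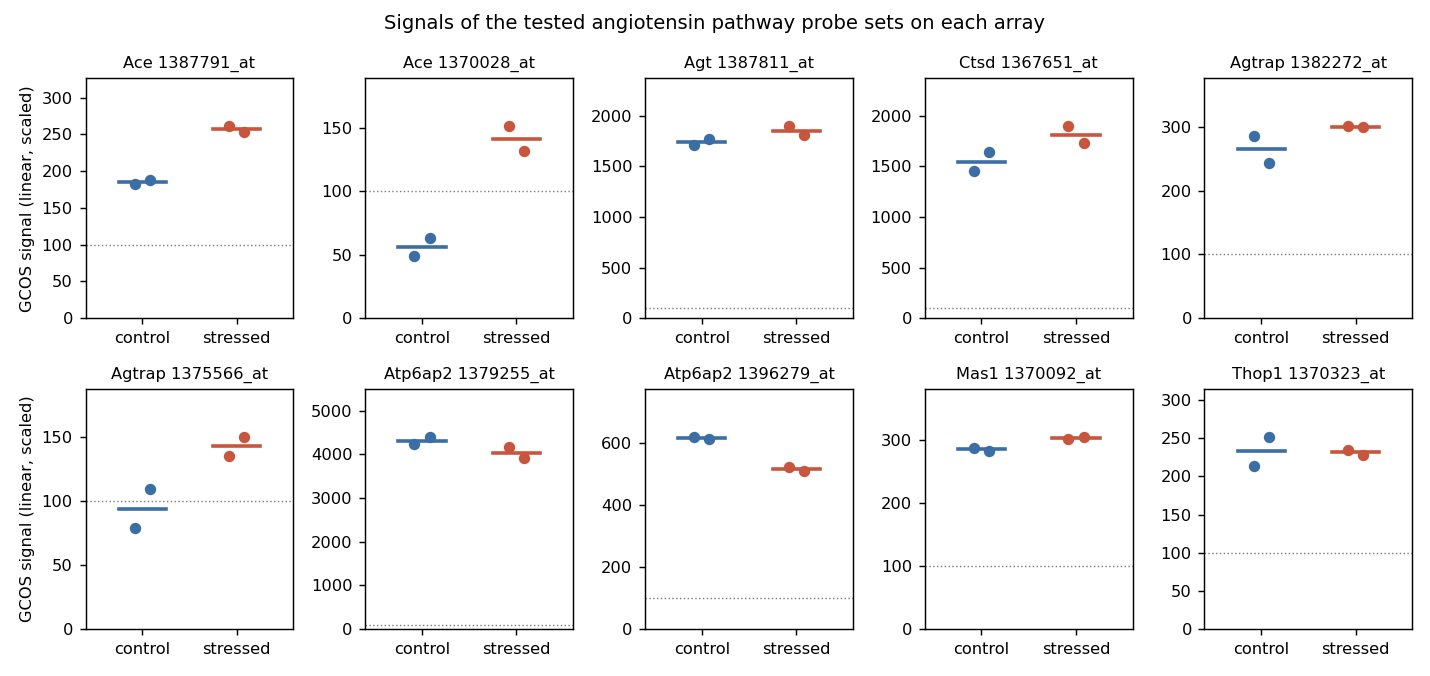
Signals of the 10 tested angiotensin pathway probe sets, one panel each, on a linear axis from 0 in scaled GCOS signal units. Points are single arrays, each a pool of 3 rats, bars are group means and the dotted line marks 100. The stressed arrays lie above the control arrays at both Ace probe sets, with the control arrays of 1370028_at at 48.8 and 63.5, and the arrays of Thop1 overlap.

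The sequence before the start of Ace is shown first, and those of the other genes with a called probe set, Agtrap, Ctsd and Atp6ap2, follow for comparison. Each is the stretch of 250 bases before the start of the gene in RefSeq on the assembly GRCr8, written 5′ to 3′ in the direction of the gene. RefSeq entries were matched by symbol for 9 of the 10 genes, all but Agt. Capitals mark matches, on either strand, to the GC box GGGCGG, the E-box CACGTG, the TATA box TATAA and the half-site AGAACA of the glucocorticoid receptor.
Ace, chr10:91409879-91410128, plus strand: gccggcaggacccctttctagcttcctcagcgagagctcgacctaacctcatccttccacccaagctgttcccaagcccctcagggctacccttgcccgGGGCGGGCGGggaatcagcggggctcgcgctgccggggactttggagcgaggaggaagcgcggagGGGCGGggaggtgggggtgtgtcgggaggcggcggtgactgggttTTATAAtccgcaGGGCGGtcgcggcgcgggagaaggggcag
Agtrap, chr5:163802175-163802424, minus strand: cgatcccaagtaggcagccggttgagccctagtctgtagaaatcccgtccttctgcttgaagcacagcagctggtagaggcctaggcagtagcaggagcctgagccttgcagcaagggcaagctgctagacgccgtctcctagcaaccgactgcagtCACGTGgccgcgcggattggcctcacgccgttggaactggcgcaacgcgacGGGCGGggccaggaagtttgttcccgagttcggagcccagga
Ctsd, chr1:206968822-206969071, minus strand: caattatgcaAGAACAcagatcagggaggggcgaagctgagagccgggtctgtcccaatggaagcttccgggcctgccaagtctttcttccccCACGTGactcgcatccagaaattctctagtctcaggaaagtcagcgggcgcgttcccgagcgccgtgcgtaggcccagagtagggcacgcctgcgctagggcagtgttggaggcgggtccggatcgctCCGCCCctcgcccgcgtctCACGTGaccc
Atp6ap2, chrX:12883671-12883920, minus strand: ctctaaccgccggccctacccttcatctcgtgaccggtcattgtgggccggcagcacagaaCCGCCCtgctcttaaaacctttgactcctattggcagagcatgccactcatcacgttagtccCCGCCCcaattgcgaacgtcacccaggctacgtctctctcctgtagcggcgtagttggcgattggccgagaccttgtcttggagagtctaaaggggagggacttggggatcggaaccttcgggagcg

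The Ace stretch held 4 GC boxes, beginning 151, 147, 86 and 29 bases before the start, the first pair overlapping, and a TATA box about 40 bases before it that matches on both strands. Its content of G and C was 69.2%, against a median of 51.2% over the 33469 stretches of the same length, of which 90.8% had less. A GC box was found in 8 of the 9 angiotensin pathway genes with an entry, Mas1 being the exception, and in 30.5% of all stretches. A TATA box was found in Ace alone of the 9, and in 24.0% of all. The E-box was present in Agtrap, Ctsd and Nln, and in 5.59% of all stretches. The glucocorticoid receptor half-site was present in Ctsd alone of the 9, and in 17.5% of all. Such matches describe the letters in this window and do not show that a factor binds there.

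Ace is made by cells that border the hippocampus as well as by cells within it, so the values of marker genes are given beside it. The marker lists were chosen with earlier results of these data known. Shares of all genes beside them are therefore a reference and no independent test. Of 16 tested markers of choroid plexus epithelium, 10 rose and none fell in limma, where 11.1% of all genes tested at their brightest probe set rose and 10.2% fell. Before adjustment 12 were higher and none lower at p under 0.05, against 19.2% and 16.4% of all genes. The unpaired t-test that the methods name left 9 higher and none lower unadjusted and none in either direction after adjustment. Of the 10 that rose, Aqp1, Cldn2, Kcne2 and Col8a1 had both control arrays under 100 and entered through the stressed arrays. Among the other 12 markers 6 rose and none fell, with a median log2 fold change of 0.30 against 0.02 over all genes. The summed signal of the 16 markers was 21640 to 22793 in stressed rats and 16589 to 18454 in nonstressed controls. Without Ttr, which made up much of the sum, it was 9701 to 9801 against 7116 to 7139, and the groups did not overlap in either sum.

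Single choroid plexus markers had log2 fold changes from 0.07 to 1.20. Among those that reached 100 in both groups the largest was 1.17, of F5. Cldn2, a tight-junction gene of this epithelium, read 208.4 and 192.4 in stressed rats and 78.8 and 96.5 in nonstressed controls, a log2 fold change of 1.20 (limma, adjusted p = 0.0016). Folr1, a folate receptor, read 324.8 and 308.0 against 200.2 and 182.6, a log2 fold change of 0.73 (limma, adjusted p = 0.0025). Ttr, the transthyretin gene, read 12992 and 11939 against 9450 and 11338, and its log2 fold change of 0.27 did not pass (limma, adjusted p = 0.0579). Kl, which encodes klotho, and the potassium channel gene Kcnj13 read at most 29.5 and 29.0 and were not measurable, and no tested marker was at 0 on any array. Of 10 tested markers of the meninges 1 rose and 6 fell, 2 of the falls in genes that reached 100 in one group only. Of 6 tested markers of ependyma 1 rose and 3 fell, where 11.1% of all genes rose and 10.2% fell. The part of choroid plexus tissue in the Ace values was not tested.

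The vessel wall is another known site of Ace. Of 18 tested endothelial markers 8 rose and 1 fell, against 11.1% and 10.2% of all genes, with a median log2 fold change of 0.30 and summed signals of 7684 to 7731 in stressed rats against 6582 to 6672 in nonstressed controls. Flt1, a receptor for vascular endothelial growth factor, read 234.6 and 287.0 against 160.4 and 126.0, a log2 fold change of 0.87 (limma, adjusted p = 0.0073). Cldn5, the tight-junction gene of brain endothelium, read 1364.0 and 1363.8 against 1363.0 and 1325.7, a log2 fold change of 0.02 with a 95% confidence interval of -0.09 to 0.13. The marker that fell, Egfl7, was under 100 on both stressed arrays, and Pecam1 was not measurable. Rises among endothelial markers came to 4 when stressed replicate 2 was left out, 4 when control replicate 1 and 3 when control replicate 2 was, and to 5 without an intensity trend or with the replicate number as a block. Of 7 tested markers of mural cells, which surround the vessels, 2 rose and 1 fell, against 11.1% and 10.2% of all genes. Both that rose, Pdgfrb and Cspg4, had both control arrays under 100. Of the other 5 none rose and 1 fell. The part of vessels in the Ace values was not tested either.

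The tissue labels were checked on neuronal markers. The granule cell gene Prox1 read 589.6 to 656.8 and the pyramidal cell gene Wfs1 297.4 to 388.1 over the 4 arrays. They are from a list of 18 markers of hippocampal neurons, of which Tdo2 and Spink8 were not measurable. Of its 13 tested genes Dsp rose, with both control arrays under 100, and Pou3f1, Neurod2 and Rbfox3 fell. Of all genes 11.1% rose and 10.2% fell. Ace is also abundant in neurons of the striatum. Of the 6 tested striatal markers, Ppp1r1b, Rasd2, Pde10a and Penk read from 444.1 to 1320.0, Syndig1l 116.7 to 147.0 and Rgs9 93.4 to 108.6. Tac1, Gpr6 and Ido1 read at most 78.4, 7.6 and 21.1 and were not measurable. Among the dopamine and adenosine receptor genes of striatal neurons, Drd2 read at most 51.3 and Adora2a at most 45.2, and Drd1 passed 100 on too few arrays to be tested, with 116.3 as its highest signal. Of these 6 tested markers 2 fell and none rose by limma, where 10.2% of all genes fell and 11.1% rose. Before adjustment 2 were lower and none higher at p under 0.05, against 16.4% and 19.2% of all genes. The t-test that the methods name left 1 lower and none higher unadjusted, and none after adjustment. The part of striatal tissue in the Ace values was not tested.

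**Figure D2:**
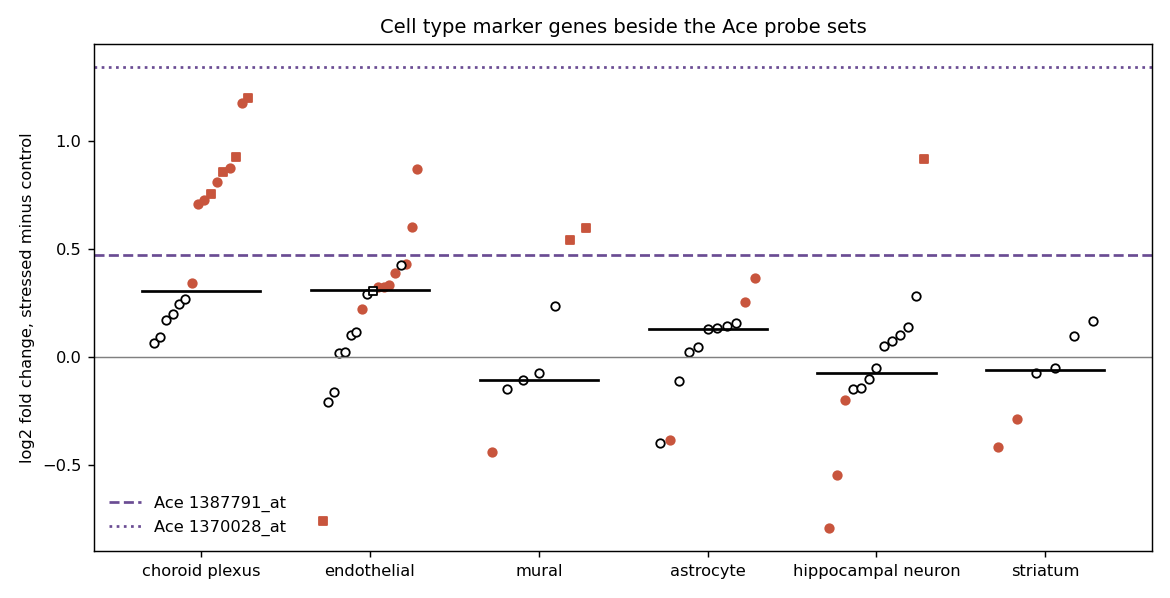
Log2 fold changes, stressed minus control, of marker genes at their brightest tested probe set, grouped by cell type or region. Filled symbols passed adjusted p under 0.05 and open ones did not, squares are genes that reached 100 in one group only, short bars are list medians without the squares, and the lines mark the Ace probe sets 1387791_at (0.47) and 1370028_at (1.34). The choroid plexus median is 0.30 and the endothelial one 0.31. Ace 1370028_at itself reached 100 in one group only, and with such genes kept the choroid plexus median was 0.72. Of the choroid plexus markers not drawn as squares, F5 (1.17), Sostdc1 (0.88), Prlr (0.81), Folr1 (0.73) and Mfrp (0.71) lie above the line of 1387791_at and the others below it.

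Over the 4 arrays the pattern of Ace at 1387791_at was closest to those of Atg7, Commd9, Rab14, Dkk3 and Atp2b3, taken by the root mean square difference in log2 signal after centring each probe set on its own mean. Atg7 acts in the formation of autophagosomes, and its signals were 262.8 and 254.0 in stressed rats and 185.5 and 190.5 in nonstressed controls. Rab14 is a GTPase of endosomal traffic and Atp2b3 a calcium pump of the plasma membrane. Their root mean square differences from Ace were 0.0074 for Atg7, 0.014 for Rab14 and 0.017 for Atp2b3. These genes were picked for their nearness, and a link to Ace was not tested. The measure takes in the size of a difference, so a flat probe set can be nearer than one that rises more. The other Ace probe set, which also rose but by more, was at 0.45, and 13704 of the 14791 tested probe sets were nearer than it.

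The substrate of the pathway differed little. Agt read 1896.2 and 1811.7 in stressed rats and 1713.4 and 1766.7 in nonstressed controls. The stressed arrays were both above the controls, by less than the spread allows to call. The log2 fold change was 0.09 (limma, standard error 0.05, adjusted p = 0.208), with a 95% confidence interval of -0.02 to 0.20, so that a rise of up to 1.15-fold is within the interval. Of 11 tested markers of astrocytes, the main makers of angiotensinogen in brain, 2 rose, 1 fell and 8 did not pass, against 11.1% and 10.2% of all genes, with a median of 0.13.

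Ctsd encodes cathepsin D, an aspartic protease of lysosomes that is able to cut angiotensinogen in the test tube. It read 1895.3 and 1734.0 in stressed rats and 1456.0 and 1639.6 in nonstressed controls. The groups did not overlap, but the arrays within each group lay far apart. The log2 fold change of 0.23 (standard error 0.07) was just past the threshold, with an adjusted p of 0.0492 from limma and a 95% confidence interval of 1.05- to 1.31-fold. The adjusted p was 0.193 without stressed replicate 1, and 0.237 and 0.052 without control replicates 1 and 2. It was 0.0737 after median centring, 0.106 with no filter on dim probe sets, 0.153 without an intensity trend and 0.0879 with the replicate number as a block.

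Agtrap encodes a protein that binds the AT1 receptor and promotes its internalisation. At 1375566_at it read 135.2 and 149.6 in stressed rats and 78.5 and 109.3 in nonstressed controls. The groups did not overlap, and the control arrays differed from each other by 0.48 on the log2 scale. On the log2 scale the rise was 0.62 (standard error 0.19), with an adjusted p of 0.0474 from limma and a 95% confidence interval of 0.19 to 1.05. The call was lost without stressed replicate 1 (adjusted p = 0.0802), stressed replicate 2 (0.155) and control replicate 1 (0.20), in the last case with a log2 fold change of 0.38. It was also lost after quantile normalization (0.0526), with no filter on dim probe sets (0.0993) and without an intensity trend (0.0775).

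The other Agtrap probe set, 1382272_at, read 300.9 and 299.4 in stressed rats and 286.1 and 243.4 in nonstressed controls. Its log2 fold change of 0.19 did not pass (limma, adjusted p = 0.237), and the 95% confidence interval was -0.06 to 0.43. The probe sets of Agtrap thus pointed the same way, and their log2 fold changes were 0.43 apart.

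Atp6ap2 encodes an accessory subunit of the vacuolar proton pump. It was the single gene of the 10 with a probe set that fell. At 1396279_at it read 522.0 and 509.8 in stressed rats and 620.3 and 612.9 in nonstressed controls. The groups did not overlap, and the arrays of a group lay closer together than the groups. On the log2 scale the difference was -0.26 (limma, standard error 0.06, adjusted p = 0.0218), or 0.84 of the control level with a 95% confidence interval of 0.76 to 0.92. The call was lost in each removal of an array, at adjusted p of 0.0505 and 0.0763 without stressed replicates 1 and 2 and 0.0978 and 0.092 without control replicates 1 and 2, and also without an intensity trend (0.0557).

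At the other probe set, 1379255_at, Atp6ap2 read 4166.2 and 3909.6 in stressed rats and 4240.1 and 4397.2 in nonstressed controls. The log2 fold change of -0.10 did not pass (limma, adjusted p = 0.191), with a 95% confidence interval of -0.21 to 0.02. The 2 intervals of Atp6ap2 overlap.

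Mas1, the receptor that lent its name to the Mas arm of the pathway, read 302.8 and 305.1 in stressed rats and 288.3 and 282.8 in nonstressed controls. The groups did not overlap, but the difference was small against the spread that limma expects at this signal. Its log2 fold change was 0.09 (limma, adjusted p = 0.478), with a 95% confidence interval of -0.11 to 0.29.

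Among Thop1, Nln, Lnpep and Prcp, peptidases that act on angiotensins, Thop1 alone was measurable. Thop1 encodes thimet oligopeptidase, which can turn angiotensin I into the heptapeptide, and read 235.3 and 228.4 in stressed rats and 214.1 and 251.6 in nonstressed controls. The control arrays lay on both sides of the stressed ones, with a log2 fold change of 0.00 and a 95% confidence interval of -0.26 to 0.26 (limma, adjusted p = 0.992). Nln, its relative neurolysin, read 93 on both stressed arrays against 87.1 and 83.3, just under the limit of 100. Lnpep, the aminopeptidase that binds angiotensin IV, read 1.0 to 11.9 over its 2 probe sets. Prcp, a carboxypeptidase that shortens angiotensin II, read 13.3 to 77.5 over its 2 probe sets, with overlapping groups.

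**Figure D3:**
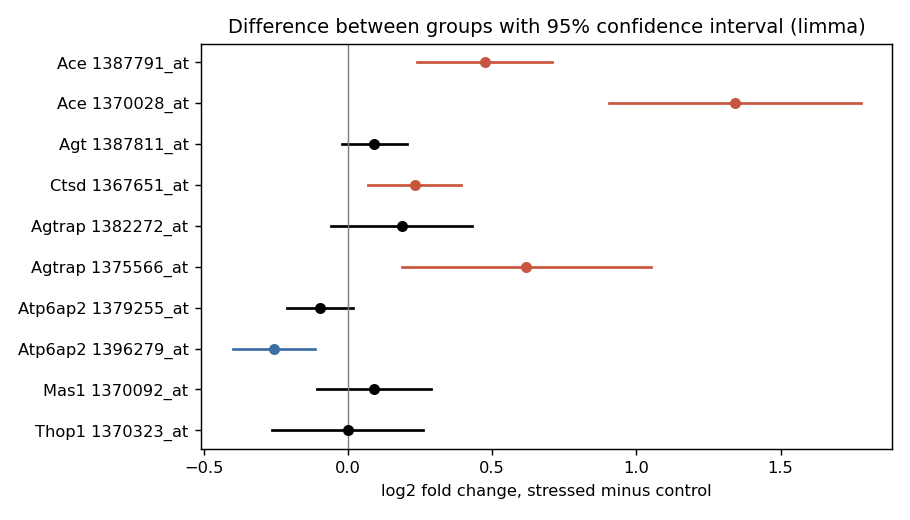
Log2 fold changes, stressed minus control, of the 10 tested probe sets of the angiotensin pathway genes, with 95% confidence intervals from limma. Orange marks probe sets higher and blue those lower at adjusted p under 0.05, and black those that did not pass. The interval of Ace 1370028_at, from 0.91 to 1.78, lies apart from that of 1387791_at, from 0.24 to 0.71.

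**Figure D4:**
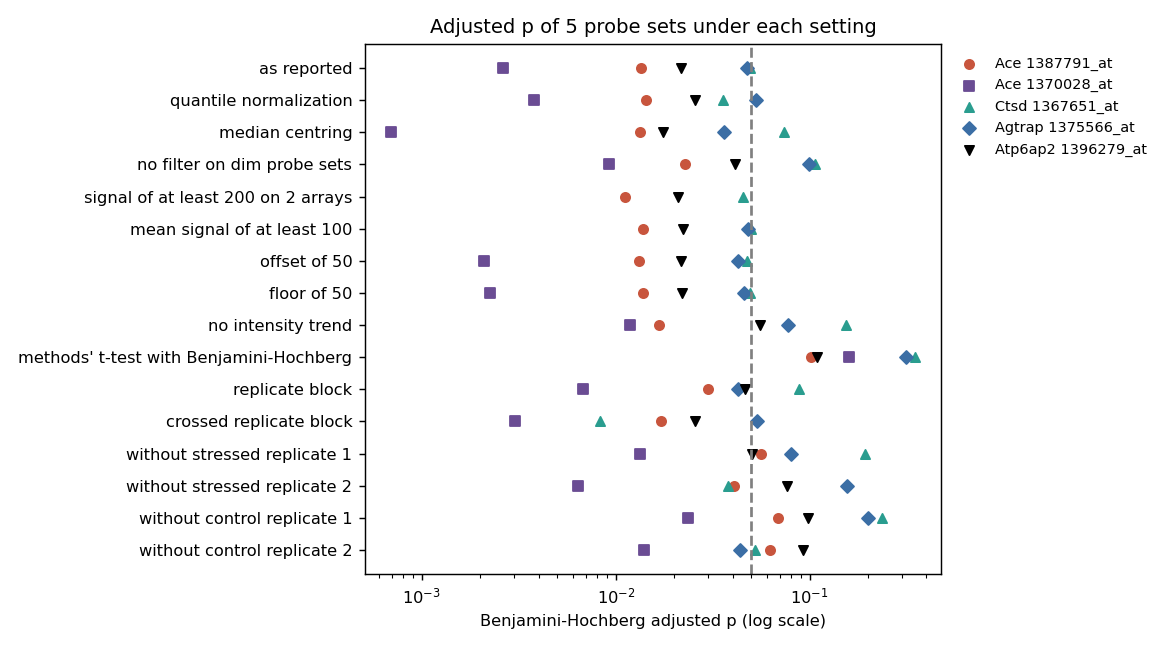
Adjusted p of the 5 called probe sets, on a log axis, as reported and under each alternative setting, with the dashed line at 0.05. A setting shows no point for a probe set that its filter left out. The points of Ctsd and Agtrap lie on both sides of the line, and Ace 1370028_at crosses it with the t-test that the methods name, where it is at 0.16.

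Of 35 further genes of the angiotensin and kinin pathways, 24 had a probe set named for them alone, and 10 of these were measurable. By limma none passed in either direction, where 11.1% of all genes rose and 10.2% fell, so with 10 genes this is near those shares. Before adjustment 1 was higher and 1 lower at p under 0.05, against 19.2% and 16.4% of all genes. The t-test that the methods name gave the same counts unadjusted and called none after adjustment. The 10 were the peptidase genes Rnpep, Ece1, Ctsa, Ctsb, Prep and Cpe, the receptor-associated genes Mtus1, Arap1 and Gabarap, and Nr3c2, the mineralocorticoid receptor gene, with log2 fold changes from -0.26 to 0.36 and a median of 0.04. Arap1 and Prep, at the ends of this range, were named after their values were seen. Arap1 read 218.3 and 213.9 in stressed rats and 177.0 and 159.8 in nonstressed controls (limma, adjusted p = 0.0534). Prep encodes prolyl oligopeptidase, which can also cut angiotensin I, and read 231.7 and 248.6 against 284.8 and 288.9 (limma, adjusted p = 0.0848).

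The probe sets of the angiotensin receptors themselves gave no measurable signal on these arrays, which does not show that the receptors are absent from the tissue. The AT1 receptor genes Agtr1a and Agtr1b read at most 25.2 and 10.9, and the AT2 receptor gene Agtr2 at most 12.6. The bradykinin receptor genes Bdkrb1 and Bdkrb2, whose ligand Ace also inactivates, read at most 15.7 and 36.8. Enpep and Anpep, aminopeptidases that shorten angiotensins from the other end, read at most 88.7 and 61.5, and Mme, which encodes neprilysin, at most 35.6. The others under the limit were Cma1, Mcpt1, Cpa3, Klk1, Cpn1 and Hsd11b2.

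Genes that act downstream of the AT1 receptor moved in both directions. Of 22 tested genes, 4 rose, 5 fell and 13 did not pass in limma, where 11.1% of all genes rose and 10.2% fell, with a median log2 fold change of -0.07. The G protein gene Gna11, whose product couples the AT1 receptor to phospholipase C, read 154.5 and 147.5 in stressed rats and 348.1 and 333.3 in nonstressed controls. This was the widest separation in the list, with a log2 fold change of -1.17 (limma, standard error 0.10, adjusted p = 2.7e-04). Gnaq, its close relative, was not measurable. Gnai2, an inhibitory G protein gene, read 1443.9 and 1686.3 against 2356.3 and 2372.3, a log2 fold change of -0.60 (limma, adjusted p = 0.0013).

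The small GTPase gene Rhoa fell at both tested probe sets, by 0.59 and 0.74 on the log2 scale. Its exchange factor Arhgef1, which the AT1 receptor activates in smooth muscle, rose by 0.42 (limma, adjusted p = 0.0125). Rock2, a kinase that Rhoa activates, rose by 0.19 at its brightest probe set (limma, adjusted p = 0.0262) and fell at another (limma, adjusted p = 7.0e-05), so that no direction can be given for the gene, although it is counted among the 4 at its brightest probe set. With the tested probe sets of each gene averaged, 3 genes of the list rose and 6 fell. Rgs2 and Rgs4, which end the signals of such G proteins, fell by 0.24 and 0.33 at their brightest probe sets, and each fell at its other tested probe set too. Src, a kinase gene, rose by 0.47 and 0.39 at its 2 tested probe sets, and Plcb1, a phospholipase gene, rose by 0.17 (limma, adjusted p = 0.0389). The arrestin genes Arrb1 and Arrb2 had log2 fold changes of -0.21 and -0.24 and did not pass. The rises of this list numbered 2 after median centring, without an intensity trend or with the replicate number as a block, 2 without stressed replicate 1, and 1 in each of the other removals of an array. These genes serve many receptors.

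**Figure D5:**
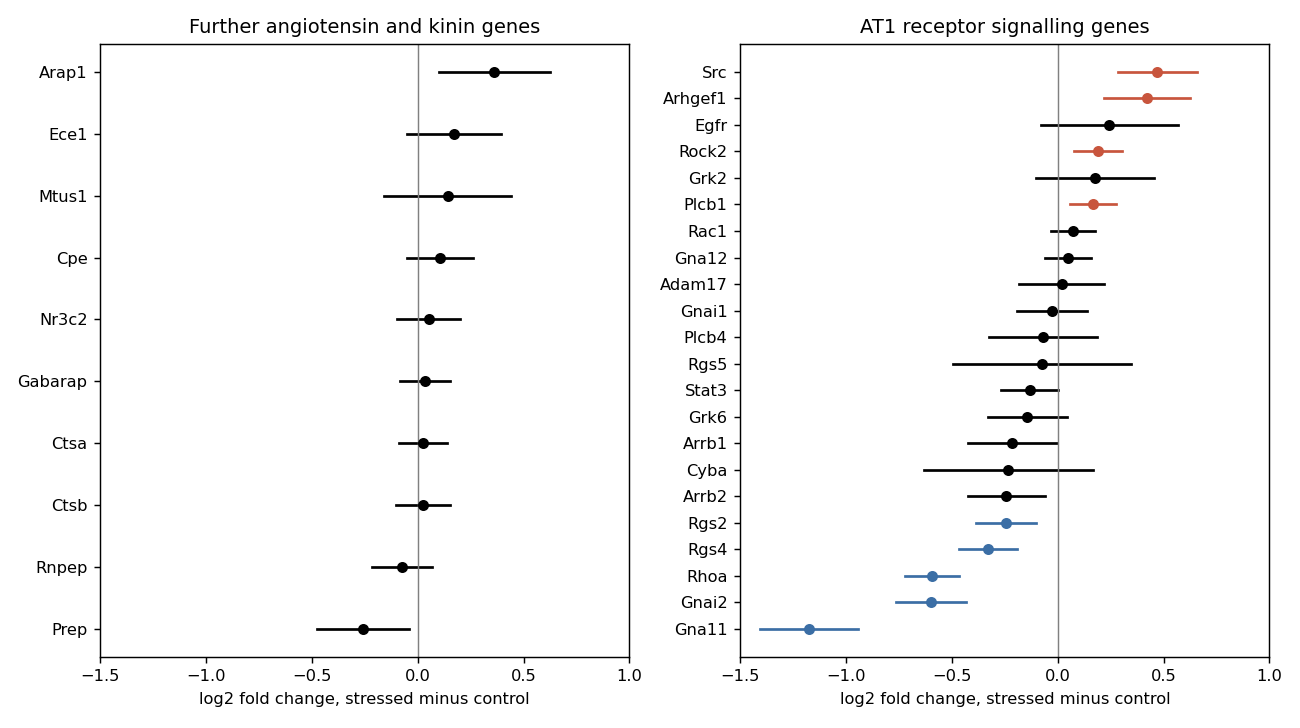
Log2 fold changes, stressed minus control, with 95% confidence intervals from limma, of 10 further angiotensin and kinin genes (left) and 22 genes that act downstream of the AT1 receptor (right), each at its brightest tested probe set. Orange marks genes higher and blue those lower at adjusted p under 0.05. None is coloured on the left, and Gna11, at -1.17, is the lowest on the right.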

How the data were processed

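Total hippocampal RNA of stressed rats and nonstressed controls was hybridized to Affymetrix rat genome arrays, 2 per group. The deposited values were signal intensities, which the authors made with GCOS 1.4 at a target value of 300. The mean of each array after trimming 2% of values at each end was 300.1. Detection calls and probe sequences were not used here, and no further normalization was added. Of 31099 probe sets, 57 Affymetrix controls were left out. Names came from the platform annotation, updated by gene identifier from RefSeq, GRCr8.

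Log2 signals, with zeros set to 0.1, were fitted, with an intensity trend and no replicate block, by limma 3.58.1 (R 4.3.3), over the 14791 probe sets that reached 100 on 2 arrays or more. Benjamini-Hochberg adjusted p under 0.05 was the threshold, and 95% confidence intervals used the moderated spread (7.73 degrees of freedom). The methods name an unpaired t-test with at least 2-fold and unadjusted p under 0.05, which was run as an alternative. In each of 10 runs on simulated data of the same size, 200 probe sets were changed, and 93.4% of those changed 1.5-fold were recovered. Of the calls in these runs 4% were false. The simulated noise was set by signal level alone, and fewer probe sets were changed than the 23.8% called here. The share recovered need not hold for the real arrays. Lists were counted with 1 probe set per gene, the brightest tested.

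Genes were named if they were members, if they passed in the angiotensin, kinin or AT1 lists, as markers of the lists, or as the 5 nearest to Ace. The members and lists were chosen with earlier results of these data known. The tested markers of meninges, ependyma and microglia numbered 10, 6 and 8. In these lists 1, 1 and 1 genes rose and 6, 3 and 2 fell, against 11.1% and 10.2% of all genes. Of 13 tested markers of hippocampal neurons 1 rose and 3 fell, beside the same shares of all genes. Of these, 2 meningeal falls and the rise of the neuronal marker came from genes that reached 100 in one group only. Alternatives were other normalizations, filters, offset and floor, no intensity trend, a block for the replicate number, removal of each array, and averaging the tested probe sets of each gene. Python 3.11.15 with numpy 2.4.6, pandas 2.3.3 and matplotlib 3.10.9 served for tables and plots.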

Additional observations from a re-analysis of the deposited data

How the results depend on the processing

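The rise of Ace at 1387791_at kept its direction in every setting run, with log2 fold changes from 0.38 to 0.50. It was not called by the methods' t-test after adjustment (0.47, adjusted p = 0.102) or at the methods' thresholds, by that test or by limma, since 0.47 is under 2-fold; over the removals of an array it ranged from 0.45 to 0.50. At the methods' thresholds the t-test called 1 tested member probe set higher, Ace 1370028_at, and none lower, and limma also 1 and none (added after seeing the data). Thop1 changed sign without stressed replicate 2 (0.02) and control replicate 2 (0.11), its values over the removals running from -0.12 to 0.11.

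Member probe sets numbered 2 higher without a filter, 2 with a signal of at least 200, 2 higher and 0 lower without an intensity trend, 0 and 0 by the t-test, and 1 to 3 higher and 0 lower over the removals. Of all tested probe sets, 1000 were higher and 1147 lower without an intensity trend, 4 and 14 by the t-test, 22 and 192 at the methods' thresholds, 32 and 204 by limma at these, and 650 to 1148 and 791 to 1342 over the removals. Median centring gave 1552 and 1906. With no filter 1223 were higher and 1341 lower of 31042, and 15 member probe sets were tested. At a signal of at least 200 it was 1654 and 1533 of 11106, with 8 member probe sets tested.

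The further angiotensin and kinin genes had 1 rise with no filter, a signal of at least 200, no intensity trend, the crossed block or averaged probe sets of each gene, and 0 over the removals. The AT1 list had 2 rises after median centring, with no filter, without a trend and with the replicate block, 0 rises and 0 falls by the t-test, 0 and 1 at the methods' thresholds by either test, and 1 to 2 rises and 4 to 6 falls over the removals. Choroid plexus markers had 6 rises of 11 at a signal of at least 200, 0 by the t-test, 2 at the methods' thresholds by either test, 7 to 9 over the removals, and 6 of 12 among genes that reached 100 in both groups, which was added after seeing the data. Endothelial markers had 5 rises with no filter, no trend or the replicate block, 0 falls at a signal of at least 200 or among genes that reached 100 in both groups, 0 and 0 by the t-test and at the methods' thresholds by either test, and 3 to 6 rises and 0 to 1 falls over the removals. The cause was not tested. Shares of all genes were taken in the fit as reported only, so these list counts show how calls moved between settings and no excess over all genes.

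The differences between replicates 1 and 2 correlated at -0.11 between the groups, which gives no sign of a shift shared by replicate number. With 2 arrays a group it cannot show whether arrays were processed in pairs, and the labels name no pairs. With the replicate block 1281 probe sets were higher and 1391 lower, 3 and 1 of them of the members, the call of Ctsd being lost. A crossed pairing, chosen after seeing the data, gave 2069 and 1970, with 3 and 2 of the members.

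Where 1 array of a group was left out, the lone one was assumed to vary like the others. Signals under 100 on 3 or more arrays were given no fold change.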
